A study of Homo sapiens with 3 samples.

Results

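ANGPTL4, FABP5 and ADM are 3 of the 110 endogenous genes that were counted in MCF10A, a line of immortalised, non-tumorigenic human breast epithelial cells. They were taken by name as genes of fatty acid handling and of the response to low oxygen, and were selected on their ratios between these same libraries, of which ANGPTL4 stood out for stem over luminal and FABP5 for stem over basal. What follows on their levels is therefore a description, and no p-value is given. The labels name 3 subpopulations of MCF10A, luminal, basal and stem, with 1 library each, so a difference between libraries has no replicate check. No genotype, treatment or growth condition is given for any of them, nor how the cells were separated. By its title the study is about Slug, a transcription factor that regulates transitions between cell states, and each pair of libraries asks how 2 states differ.

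ANGPTL4 encodes angiopoietin-like 4, a secreted protein that inhibits lipoprotein lipase and so limits the release of fatty acids from circulating triglyceride. Its gene is induced by fatty acids through the PPAR nuclear receptors and by low oxygen through hypoxia-inducible factor. FABP5 encodes a fatty acid binding protein of epithelial cells, which carries fatty acids inside the cell, also to the nuclear receptor PPAR-delta. ADM encodes adrenomedullin, a secreted peptide hormone that widens blood vessels, and is a widely used marker of the response to hypoxia. Hypoxia-inducible factor binds short elements with the core ACGTG or GCGTG, whereas the TATA box, close to the start of many strongly regulated genes, positions the transcription machinery.

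On the RefSeq annotation of GRCh38.p14, ANGPTL4 lies on chromosome 19 (8364155 to 8374370) and ADM on chromosome 11 (10305073 to 10307397). The probes were listed against the transcripts NM_001039667.1 for ANGPTL4, NM_001444.1 for FABP5 and NM_001124.1 for ADM. RefSeq holds 2 curated mRNAs of ANGPTL4, and the files do not say whether the probe tells them apart. The table also holds 15 FABP5 pseudogenes, whose transcripts, if present, might be counted with FABP5, and this was not tested. The promoters of ADM and ANGPTL4, both known targets of the hypoxia response, are shown. The promoter set used here held no sequence for FABP5. Each sequence gives the 250 bases before the RefSeq start on the plus strand, chr19:8363905-8364154 for ANGPTL4 and chr11:10304823-10305072 for ADM, with capitals for matches on either strand to the hypoxia core in both its forms or to the TATA letters TATAAA.
ANGPTL4: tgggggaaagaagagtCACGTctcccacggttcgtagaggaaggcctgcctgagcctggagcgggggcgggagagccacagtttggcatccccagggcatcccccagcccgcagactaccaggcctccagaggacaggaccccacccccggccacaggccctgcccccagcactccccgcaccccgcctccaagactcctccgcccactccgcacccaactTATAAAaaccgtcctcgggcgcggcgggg
ADM: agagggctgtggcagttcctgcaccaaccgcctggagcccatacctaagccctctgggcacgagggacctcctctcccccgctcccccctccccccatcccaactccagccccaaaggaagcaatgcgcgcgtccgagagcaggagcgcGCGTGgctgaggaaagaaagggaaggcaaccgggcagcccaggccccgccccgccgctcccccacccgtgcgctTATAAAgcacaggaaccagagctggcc

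ACGTG occurred in the ANGPTL4 sequence, on the minus strand 234 to 230 bases before the start, and GCGTG in that of ADM, 101 to 97 bases before it. Of 35116 RefSeq promoter windows of the same length, 43.2% held ACGTG or GCGTG on either strand, so such a match is common. TATAAA stood 29 to 24 bases before the start of ANGPTL4 and 27 to 22 bases before that of ADM, and 10.7% of all windows held it. None of these 3 motifs overlapped another in the 2 windows. These matches are letters in a window and were not set against binding data.

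The assay was the NanoString nCounter, which counts colour-coded barcode probes hybridised to RNA without amplification. The luminal library held 9136 endogenous counts, basal 8891 and stem 792367, and the values below are raw counts per 100 of the geometric mean of 5 housekeeping genes (normalised counts). Background, the mean plus 2 SD of 8 negative control probes, lay at 1.83, 1 and 18.9 raw counts in that order. In basal all of these probes stood at the lowest listed value of 1, so any higher count passed as above background there. Intervals are exact 95% intervals that cover counting error only. The counting error of the housekeeping mean adds to these, with a half-width on the log2 scale of 0.29 between basal and luminal, 0.19 between stem and luminal and 0.23 between stem and basal. The 5 housekeeping genes also differed among themselves, with an SD of their log2 ratios of 0.55, 0.37 and 0.60 in that order. For stem over basal RPLP0 had -0.84 (-0.90 to -0.78) and ACTB 0.20 (0.11 to 0.30), apart by more than counting error. The half-widths do not cover this disagreement. Of the lineage markers on the panel, the luminal surface marker CD24 (4 counts in basal, 21 in luminal) was lower in basal. KRT14 and VIM were higher in basal than in luminal by less than 2-fold, also as the labels have it. KRT5 was only 1.10-fold higher, a log2 ratio of 0.14 (0.01 to 0.27). That is less than the 0.29 half-width of the scale, so KRT5 did not separate the 2 libraries. The basal keratin KRT17 was lower in basal, and KRT8 did not separate basal from luminal. Stem had less KRT8 and KRT5 than luminal (log2 ratios -0.47 and -0.57) and than basal (-0.49 and -0.70). KRT14 and VIM were lower in stem than in basal (-0.52 and -0.65), and KRT17 was higher (0.40). CD24 was lower in stem than in luminal (-1.41). These marker ratios are on the housekeeping scale. With positive control probes, which count RNA spiked into the reaction, as the scale, every log2 ratio rises. The rise is 1.66 for stem over luminal, 0.47 for stem over basal and 1.19 for basal over luminal. The lower values given for stem over luminal then turn positive, as does that of KRT17 for basal over luminal. EPCAM (6 counts in luminal) stood at the listed minimum of 1 in basal, and GATA3, ESR1 and KRT19 were listed at 1 in both. Fewer cells that express a gene and less RNA per cell cannot be told apart in such pools.

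ANGPTL4 was most abundant in the luminal library and least in the stem library. It had 26 raw counts in luminal, 16 in basal and 1171 in stem, all above background. The luminal library had a normalised count of 18.8 (12.3 to 27.6), the basal library 13.5 (7.73 to 21.9) and the stem library 9.12 (8.60 to 9.65). The interval of luminal did not overlap that of stem, whereas basal overlapped with both and cannot be placed apart from either at this depth.

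FABP5, on chromosome 8 (81280536 to 81284775 of GRCh38.p14), stood the other way, with its highest level in the stem library. It had 30 raw counts in luminal, 23 in basal and 5215 in stem. The normalised count was 40.6 (39.5 to 41.7) for stem, against 21.7 (14.7 to 31.0) for luminal and 19.4 (12.3 to 29.2) for basal. The stem interval lay above both others, and those of luminal and basal overlapped over most of their length.

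ADM was close to the lower end of what the luminal and basal libraries could measure. It had 3 raw counts in luminal, 2 in basal and 329 in stem, which is 1.64, 2 and 17.4 times the background. For basal that background is only the lowest listed value of 1, so the multiple says little. The normalised count was 2.17 (0.45 to 6.35) for luminal, 1.69 (0.20 to 6.10) for basal and 2.56 (2.29 to 2.85) for stem. All 3 intervals overlapped, and no order of the libraries could be read for this gene on the housekeeping scale.

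**Figure D1:**
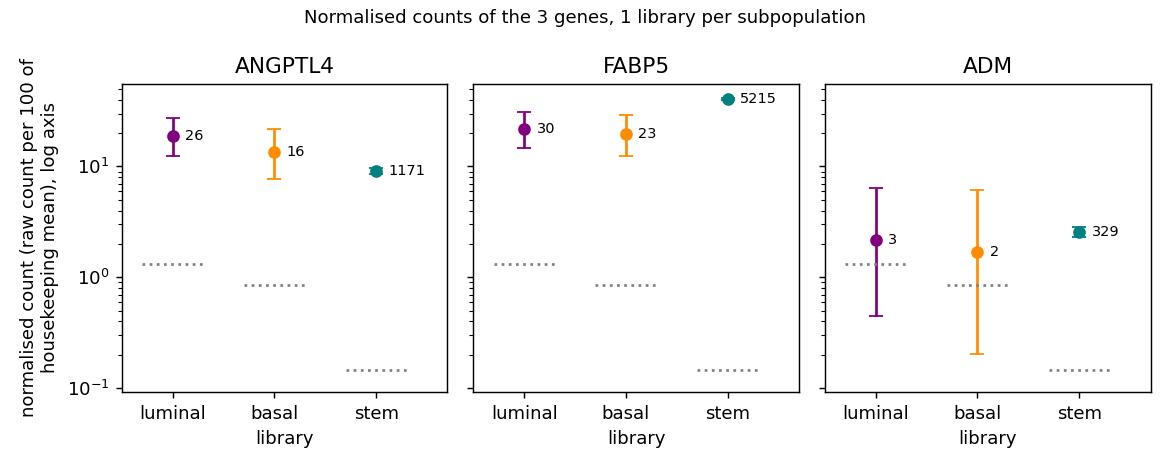
Normalised counts (raw count per 100 of the housekeeping mean, log axis) of ANGPTL4, FABP5 and ADM in the luminal, basal and stem libraries, with exact 95% counting intervals, raw counts beside the points and each library's background as a dotted line. ANGPTL4 goes from 18.8 in luminal to 9.12 in stem, FABP5 stands at 40.6 in stem against 21.7 and 19.4, and the ADM intervals of luminal and basal reach below background.

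Between stem and luminal, ANGPTL4 was lower and FABP5 higher in stem. ANGPTL4 was 2.07-fold lower (1.34 to 3.04), a log2 ratio of -1.05 with an interval of -1.61 to -0.43. FABP5 was 1.87-fold higher, a log2 ratio of 0.90 (0.39 to 1.47). ADM had a log2 ratio of 0.24 with an interval from -1.32 to 2.52, wide enough to hold both a 2-fold lower and a 2-fold higher level. A gene was called when its ratio was at least 2-fold, its interval excluded 1 and either library had it above background, which 4 of 94 genes met (4.26%). ANGPTL4 was among them, 1 of the 3 genes described here, while FABP5 fell just short of 2-fold, as did RAD50, the next gene above it. FABP5 did pass under total count (1.003), without MRPL19 in the scale (1.02) and on the positive control scale, where 74.5% of all genes passed. By the interval alone 23 of 94 genes stood apart (24.5%), ANGPTL4 and FABP5 with them.

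The place of a gene among all others does not change with the scale between libraries. Of 76 genes above background in both the stem and luminal libraries, 4 had a lower ratio than ANGPTL4, and the lowest was FBN1 at -2.10. FABP5 stood near the other end, with 4 genes above it, up to BAG1 at 1.03. ADM lay in the middle, with 38 genes below and 37 above. The median of the 76 genes was 0.24, so that ANGPTL4 was 1.28 below and FABP5 0.67 above it on the log2 scale.

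**Figure D2:**
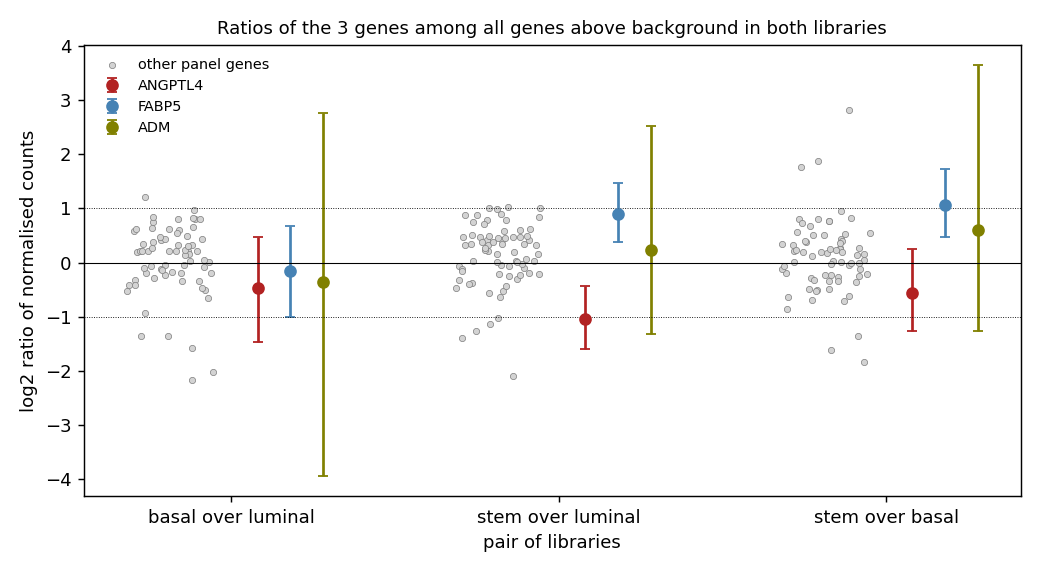
Log2 ratios of normalised counts for the 3 pairs of libraries, with grey points for the other panel genes above background in both libraries and coloured points with 95% counting intervals for ANGPTL4, FABP5 and ADM; dotted lines mark 2-fold. In stem over luminal ANGPTL4 stands at -1.05 and FABP5 at 0.90, while the intervals of ADM span 0 in all 3 pairs.

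Between stem and basal, FABP5 was again the higher in stem and ANGPTL4 the lower, and only for FABP5 did the interval exclude equal levels. FABP5 was 2.09-fold higher, a log2 ratio of 1.06 (0.48 to 1.72). ANGPTL4 had a log2 ratio of -0.57 (-1.27 to 0.24) and ADM of 0.60 (-1.26 to 3.65). The rule was met by 3 of 94 genes (3.19%), and the interval alone excluded 1 for 24.5% of them. FABP5 met both, and the first gene outside it was RRM2 at 1.93-fold. Of 74 genes above background in both libraries, 3 had a higher ratio than FABP5, the highest being ESRP1 at 2.81, and 8 had a lower one than ANGPTL4. This pair shares the stem library with the comparison before it, so the place of FABP5 in both is not 2 separate observations.

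Between basal and luminal none of the 3 genes could be told apart from equal levels on the housekeeping scale. The log2 ratio was -0.48 (-1.48 to 0.47) for ANGPTL4, -0.16 (-1.01 to 0.67) for FABP5 and -0.36 (-3.95 to 2.76) for ADM. The rule was met by 2 of 79 genes (2.53%) and the interval alone excluded 1 for 16.5%, none of them from this set. A 2-fold lower level in basal lay inside the interval of each gene, and a 2-fold higher level inside that of ADM only. On the positive control scale all 3 signs turned, to 0.71 (-0.28 to 1.67) for ANGPTL4, 0.83 (-2.75 to 3.96) for ADM and 1.03 (0.18 to 1.86) for FABP5, which then met the rule as did 54.4% of all genes.

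How FABP5 and ANGPTL4 moved against each other can be read within a library, with no scale at all. There were 1.15 FABP5 counts per ANGPTL4 count in luminal, 1.44 in basal and 4.45 in stem. These ratios hold the efficiencies of 2 probes and do not compare the levels of the 2 genes, but their change between libraries does not depend on either. The FABP5 to ANGPTL4 ratio was 3.86-fold higher in stem than in luminal (2.18 to 6.78) and 3.10-fold higher in stem than in basal (1.52 to 6.15). Between basal and luminal it was 1.25-fold higher, with an interval of 0.50 to 3.10 that included no change. Stem thus stood apart from both other libraries in this ratio, while luminal and basal could not be separated at this depth. Both genes were selected on their ratios between these libraries, so this separation is a description and adds no separate support.

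ADM gave no such separation. There were 0.12 ADM counts per ANGPTL4 count in luminal, 0.13 in basal and 0.28 in stem. That ratio was 2.43 times higher in stem than in luminal (0.74 to 12.6) and 2.25 times higher than in basal (0.52 to 20.2). For FABP5 against ADM the changes were 1.59-fold (0.31 to 5.14) and 1.38-fold (0.16 to 5.62). All 4 intervals included no change, so whether ADM followed either gene could not be seen at this depth.

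**Figure D3:**
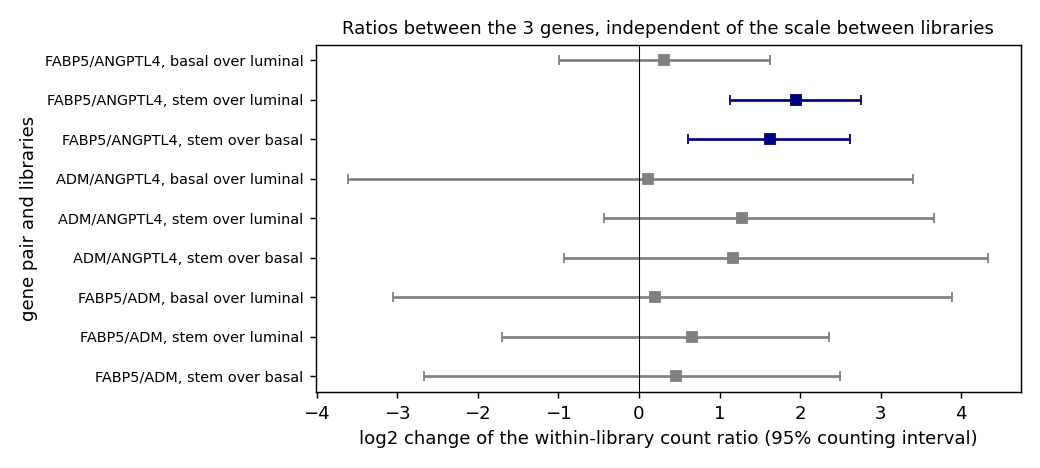
Log2 change between libraries of the count ratio of 2 genes within a library, for each pair of the 3 genes, with 95% counting intervals; dark symbols have intervals that exclude 0. Only the FABP5 to ANGPTL4 ratio in stem over luminal (1.95) and stem over basal (1.63) does so among the 9.

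The direction of a change between libraries did depend on what it was measured against. Set against each housekeeping gene alone, ANGPTL4 was lower in stem than in luminal against all 5, from -1.54 against MRPL19 to -0.60 against RPLP0 on the log2 scale, and 3 of the 5 intervals excluded 0. FABP5 was higher against all 5, from 0.41 to 1.35, with 4 intervals that excluded 0. For stem over basal FABP5 was higher against all 5, from 0.40 to 1.90, with 3 such intervals. ANGPTL4 in that pair ranged from -1.23 to 0.27, with none. Comparisons of a gene with each of the 5 reuse its same counts and are not separate observations. When the 6 positive control probes, which count RNA spiked into the reaction, set the scale instead, the ANGPTL4 value for stem over luminal turned to 0.61 (0.05 to 1.23), that of FABP5 came to 2.56 (2.04 to 3.13) and that of ADM to 1.89 (0.33 to 4.18). FABP5 and ADM then met the rule as higher in stem, as did 74.5% of all genes. The positive controls summed to 2795 counts in luminal, 776 in basal and 69670 in stem, and they do not correct for the amount of RNA put in. The lower level of ANGPTL4 in stem is thus one relative to the housekeeping genes and to most of the panel.

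**Figure D4:**
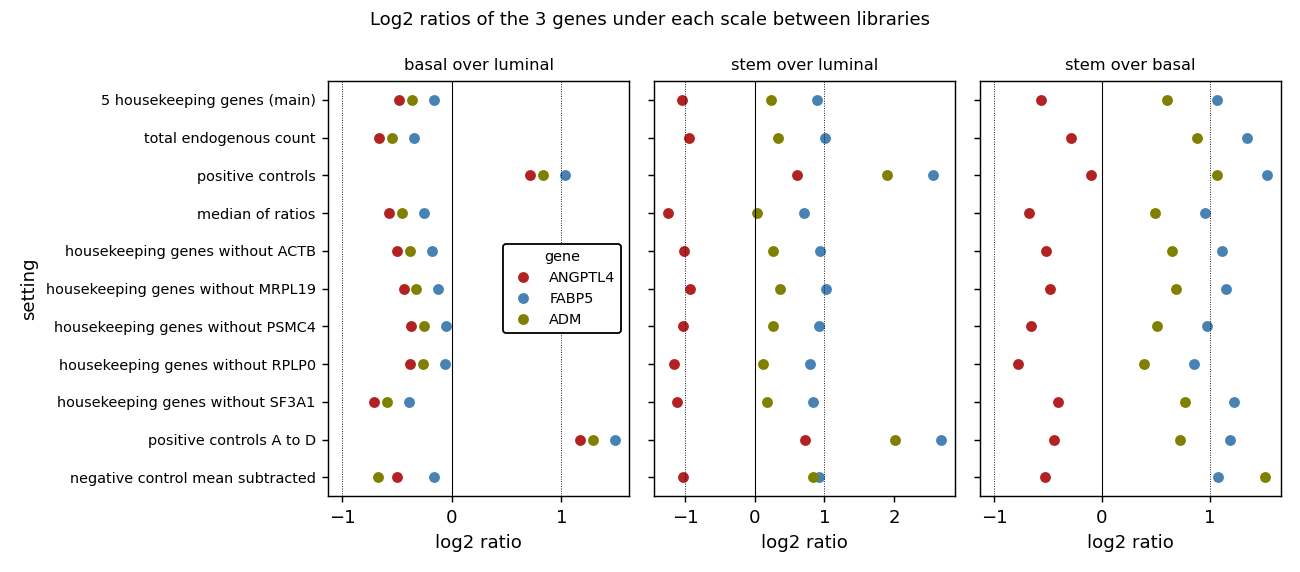
Log2 ratios of ANGPTL4, FABP5 and ADM for the 3 pairs of libraries under each scale between libraries and with background subtracted; dotted lines mark 2-fold. A change of scale moves the 3 genes of a pair alike, so that their spacing is fixed, and ANGPTL4 in stem over luminal goes from -1.24 under median of ratios to 0.72 under positive controls A to D.

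The panel held 10 further genes of a list of hypoxia-responsive genes, VEGFA, NDRG1, DDIT4, SLC16A3, PLOD1, PNP, GAL, RRAGD, UCHL1 and FLVCR2. Several are induced by hypoxia, and all appear with ANGPTL4, FABP5 and ADM in a published tumour expression signature built around VEGFA. No gene of the lists for other lipid handling genes, adrenomedullin receptors, retinoid partners of FABP5, adipocytes or endothelial cells was on the panel. Of the 10, 6 were above background in all 3 libraries. RRAGD, UCHL1 and FLVCR2 had 54, 55 and 65 counts in stem and were listed at 1, the lowest listed value, in luminal and basal. GAL, the neuropeptide galanin, was above background in no library.

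On the housekeeping scale no list gene passed the 2-fold rule in any pair. Few genes of the whole panel did so either. Between basal and luminal it was 0 of 6 list genes above background in either library, against 2.53% of all 79 genes. Between stem and luminal it was 0 of 9, against 4.26% of all 94. Between stem and basal it was also 0 of 9, against 3.19% of all 94. At shares this low, 0 calls among 6 or 9 genes do not set the list apart. On the positive control scale 6 of 9 passed as higher for stem over luminal, where 74.5% of all 94 genes were called, and 4 of 6 for basal over luminal, where 54.4% of all 79 were. What follows is on the housekeeping scale. For stem over luminal, 0 of 9 above background had an interval that excluded 1, against 24.5% of all genes. Among the 9, RRAGD, UCHL1 and FLVCR2 were listed at 1 in luminal, as in basal, and had wide intervals, -3.33 to 4.54 on the log2 scale for RRAGD. The 0 of 9 therefore does not set the list apart. The median log2 ratio of the 6 genes above background in both libraries was 0.08, against 0.24 for all 76 genes. For stem over basal 1 was higher, 1 was lower and 7 had intervals that included 1, a share close to the 24.5% of all genes whose intervals excluded it, with a median of 0.31 against 0.15. The higher gene was SLC16A3, the lactate exporter MCT4, which had 5415 counts in stem and 35 in basal and a log2 ratio of 0.51 (0.03 to 1.04). The lower was DDIT4, an inhibitor of mTORC1 induced by hypoxia, with 13199 and 171 counts and a log2 ratio of -0.49 (-0.71 to -0.27). Under the 9 other scales tried SLC16A3 ranged from 0.30 to 0.98, with 3 intervals that included 0, and DDIT4 from -0.70 to -0.03, with 2 such intervals. For basal over luminal 0 of 6 had an interval that excluded 1, against 16.5% of all genes, and the median was -0.13 against 0.15.

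VEGFA, the vascular growth factor and a textbook target of hypoxia-inducible factor, had 20 counts in luminal, 9 in basal and 1415 in stem. Stem over luminal gave a log2 ratio of -0.40 (-1.03 to 0.32) and stem over basal gave 0.53 (-0.39 to 1.67), so its level in stem was not separable from either. NDRG1, a stress-induced gene, had a log2 ratio of 0.01 (-0.41 to 0.45) for stem over luminal. Set against each of the 6 list genes measured in both libraries, ANGPTL4 was lower in stem than in luminal for all 6, from -1.47 against PNP to -0.65 against VEGFA, and 5 of the 6 intervals excluded 0. FABP5 was higher against all 6, from 0.48 to 1.30, and 3 intervals excluded 0. The other 3 intervals of FABP5 included 0. For stem over basal 1 of 6 intervals excluded 0 for ANGPTL4 and 2 of 6 for FABP5. All these comparisons reuse the same counts of ANGPTL4 or of FABP5, so they are not separate observations.

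The share of the counts over all 13 genes, the 3 and the 10 together, needs no scale between libraries. It uses the same counts as above and adds no separate support. DDIT4 alone held 42.1% of the counts of the 13 genes in luminal, 50.4% in basal and 35.4% in stem, so every other share also depends on it. By exact binomial intervals, ANGPTL4 held 6.63% (4.38 to 9.57) of 392 luminal counts, 4.72% (2.72 to 7.55) of 339 basal counts and 3.14% (2.96 to 3.32) of 37299 stem counts. FABP5 held 7.65% (5.22 to 10.7), 6.78% (4.35 to 10.01) and 13.98% (13.6 to 14.3) in that order. ADM held 0.77% (0.16 to 2.22), 0.59% (0.07 to 2.11) and 0.88% (0.79 to 0.98). For FABP5 the stem interval lay above both others, for ANGPTL4 it lay below that of luminal and overlapped with basal, and for ADM all overlapped.

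**Figure D5:**
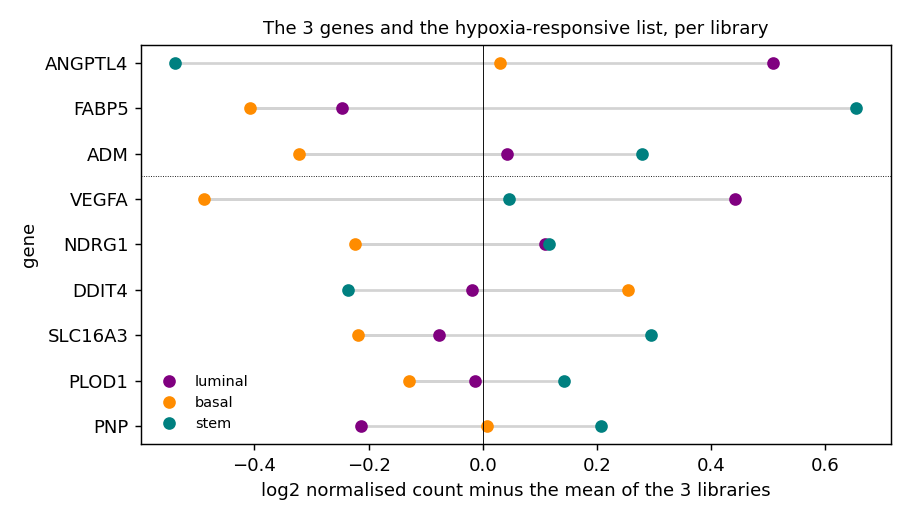
Log2 normalised count minus the mean of the 3 libraries for ANGPTL4, FABP5 and ADM (above the dotted line) and the 6 hypoxia-responsive list genes above background in all libraries. ANGPTL4 goes from 0.51 in luminal to -0.54 in stem and FABP5 from -0.41 in basal to 0.65 in stem; the points carry no error bars.

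The genes whose pattern over the 3 libraries was most like each of these were taken as the nearest among 70 others above background in all libraries, by the distance between log2 values centred on each gene's mean. Nearest to FABP5 were RRM2, a subunit of ribonucleotide reductase, at a distance of 0.09, CDH3, which encodes P-cadherin, at 0.22, and the cell-cycle repressor RB1 at 0.28. RRM2 had normalised counts of 44.2 in luminal, 42.2 in basal and 81.4 in stem, so that it too was highest in stem on the housekeeping scale. Nearest to ANGPTL4 were FOXA1, a luminal transcription factor, at 0.35, the protease inhibitor SPINT1 at 0.44 and KRT8 at 0.44. FOXA1 had 5 raw counts in luminal, 3 in basal and 298 in stem, and at such counts its place is uncertain. ANGPTL4 thus had no neighbour as close as FABP5 had. For ADM they were JUP, which encodes plakoglobin, at 0.09, EMP3 at 0.16 and SLC16A3 at 0.16, but with 3 and 2 counts of ADM the distances rest on little. With 3 libraries such likeness is easily met, and nothing was read from it on function.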

How the data were processed

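Total RNA of 3 MCF10A subpopulations was counted on the NanoString nCounter, with 1 library each. Per the labels, RNA at 100 ng/ul was processed after the manufacturer's protocol, and the kit named for extraction is made for fixed tissue. The raw counts per probe were deposited without normalization, with 1 as the lowest listed value. A listed 1 may thus stand for 0 or 1, and it was used as 1 in ratios and intervals. The log2 values that the authors deposited for 105 genes matched the raw counts divided by the housekeeping geometric mean (ACTB, MRPL19, PSMC4, RPLP0, SF3A1) within 3.53e-09, with each of the 105 rows paired with a gene of its own. Aligner and build do not apply to this assay, and steps before the counts are not given in the sources used here.

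Raw counts were used throughout. Ratios between libraries had exact conditional (Clopper-Pearson) intervals, ratios between genes exact conditional odds-ratio intervals, and single counts exact Poisson intervals, all at 95% and for counting error only. Intervals were tested on simulated data. The 5 housekeeping genes were left out of the 105 genes called. Alternatives were total count, positive controls, median of ratios, each housekeeping gene left out, background subtraction and other call limits. The members and lists were chosen with earlier results of these data known. Named genes were the 3 members, the housekeeping genes, list genes on the panel and the 3 nearest patterns per member; other genes named, such as those at the ends of a ranking, were chosen after their values were seen. RefSeq matched all 3 members and all 10 list genes, and promoter sequences, which were not available for FABP5, are from RefSeq on GRCh38.p14. Python 3.11.15, SciPy 1.17.1 and pandas 2.3.3 were used.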

Additional observations from a re-analysis of the deposited data

How the results depend on the processing

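Of 90 alternative values of the log2 ratios, 82 stayed within the counting interval of the reported value, and all 9 alternatives of the ratios between the 3 genes did. The exceptions all came from positive control scaling. For ANGPTL4, stem over luminal turned to 0.61 with all 6 controls and to 0.72 with A to D, a choice made after seeing the data, and basal over luminal became 0.71 and 1.17. FABP5 became 1.03 and 1.49 for basal over luminal and 2.56 and 2.67 for stem over luminal. On these scales FABP5 met the rule in all 3 pairs, ADM for stem over luminal (1.89 and 2.01) and ANGPTL4, with A to D only, for basal over luminal. The share of all genes called, with all 6 controls and with A to D, was 54.4% and 69.6% for basal over luminal. It was 74.5% on both for stem over luminal, and 11.7% and 5.32% for stem over basal.

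ANGPTL4 for stem over luminal stayed past 2-fold without 4 of the 5 housekeeping genes, each left out in turn, and under median of ratios. It fell under it without MRPL19 (-0.92) and under total count (-0.95). FABP5 for stem over basal fell under 2-fold without PSMC4 (0.97), without RPLP0 (0.85) and under median of ratios (0.96). For stem over luminal it came past 2-fold under total count (1.003) and without MRPL19 (1.02). With the negative control mean subtracted ADM went from 0.24 to 0.84 for stem over luminal and from 0.60 to 1.51 for stem over basal, inside its wide intervals.

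The count of genes past the rule moved more. For basal over luminal, 2 became 43 under positive controls, 55 with A to D, 9 at 1.5-fold and 0 with the stricter interval. For stem over luminal, 4 became 70 under both positive control scales, 2 under median of ratios, without RPLP0 or without SF3A1, 7 without MRPL19, 0 at 3-fold and 13 at 1.5-fold. For stem over basal, 3 became 8 under total count, 11 under positive controls, 5 with A to D and without MRPL19 or SF3A1, 1 under median of ratios or without PSMC4, and 13 at 1.5-fold. The cause was not tested. No paired analysis was possible because each subpopulation had 1 library. The shallow luminal and basal libraries limit every ratio.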
